A study of Mus musculus with 6 samples.

Results

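Keratins are the intermediate filament proteins of epithelial cells, and 10 of them were followed in 2 related mouse ovarian cancer cell lines. They were 6 keratins of simple, single-layered epithelia (Krt7, Krt8, Krt18, Krt19, Krt20 and Krt23) and 4 of the basal layer of stratified epithelia (Krt5, Krt14, Krt15 and Krt17). All probes that the platform annotation gives to these 10 genes were taken, 11 of the 45281 probes on the array, with 2 for Krt8 and 1 for each other gene. The lines were ID8, which derives from ovarian surface epithelial cells of C57BL/6 mice, and ID8-M. ID8-M was grown from clones picked out of the ascites that ID8 cells had produced 12 weeks after injection into the peritoneal cavity of 8-week-old female C57BL/6 mice. Both lines were kept in high-glucose medium with 4% serum, insulin, transferrin and selenite, and no treatment was applied. Each line was represented by 3 samples on 1 bead chip, ID8 on positions A to C and ID8-M on D to F, so line and chip position cannot be told apart. The labels do not say that the 3 samples of a line were separate cultures, so p-values measure the spread between these samples, which may be technical.

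Keratin filaments are built from pairs of 1 type I and 1 type II chain. Of the genes followed here, Krt5, Krt7 and Krt8 encode type II chains and the others type I chains. Krt8 and Krt18 form the basic filament of simple epithelia, joined by Krt7 and Krt19 in many glands, ducts and in the ovarian surface epithelium. Krt5 and Krt14 form the filament of basal keratinocytes and are anchored at desmosomes and hemidesmosomes. Simple keratins are widely used to recognise carcinoma cells, including those of ovarian cancer.

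In ID8-M the transcripts of 6 keratins were higher than in ID8. Krt14 rose most, 22.3-fold, followed by Krt7 at 4.38-fold and Krt23, which was at least 2.13-fold higher, while Krt18, Krt8 and Krt19 rose 1.63-fold, 1.6-fold and 1.41-fold. Krt15 stood 1.29-fold higher in the mean and was not called, and Krt5, Krt17 and Krt20 were not detected in either line. The array thus showed the simple keratins of glandular epithelium in both lines, and Krt14 as the basal keratin that was strongly raised in ID8-M without a detectable signal of its type II partner Krt5. Krt5, Krt17 and Krt20 have 1 probe each, and a silent probe does not show that a transcript is absent. The second Krt8 probe was silent too, although the first was strong. In cultures measured in bulk, more cells with a transcript and more transcript per cell cannot be told apart. Each fold is ID8-M over ID8 on a scale corrected for background and normalized by quantiles, with n = 3 per line. The bound for Krt23 holds on this scale only, and without background correction its log2 difference was 0.59.

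Of the 10 keratins, 7 passed the filter, a detection p below 0.05 throughout the 3 arrays of one line or both. Among these 7, 6 were called higher and 0 lower (limma, Benjamini-Hochberg adjusted p under 0.05), and at an unadjusted p under 0.05 the number lower was also 0. Over all 8933 tested genes, 15.4% were called higher and 15.3% lower, 30.8% in either direction. Over the 16221 tested probes the shares were 13.6% and 14.8%, 28.4% in either direction. Krt15 and Krt23 passed only through the ID8-M arrays, so the count over tested keratins leans toward rises by construction. The 5 keratins detected on all 6 arrays, Krt7, Krt8, Krt14, Krt18 and Krt19, were all called higher. Of the 7 tested keratins, the 6 that were called did not overlap between lines, and Krt15 did. All 3 ID8-M arrays stood above all 3 ID8 arrays for 23.3% of tested genes and below them for 25.1%. This separation is no further support, since a call nearly fixes it. Krt14, Krt7 and Krt23 were fitted at more than 2-fold higher, as were 4.03% of tested genes, and Krt14 and Krt7 at more than 4-fold, as were 1.07%. A called rise beyond 8-fold was found for 0.347% of tested genes and one beyond 16-fold for 0.112%, Krt14 among them. The median log2 difference was 0.70 over the 5 tested simple keratins and −0.03 over all tested genes. Without the filter the median over all 10 keratins was 0.59, with 0.69 for the 6 simple and 0.20 for the 4 basal genes. With 2 tested basal genes, Krt14 and Krt15, the classes cannot be compared as classes.

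**Figure D1:**
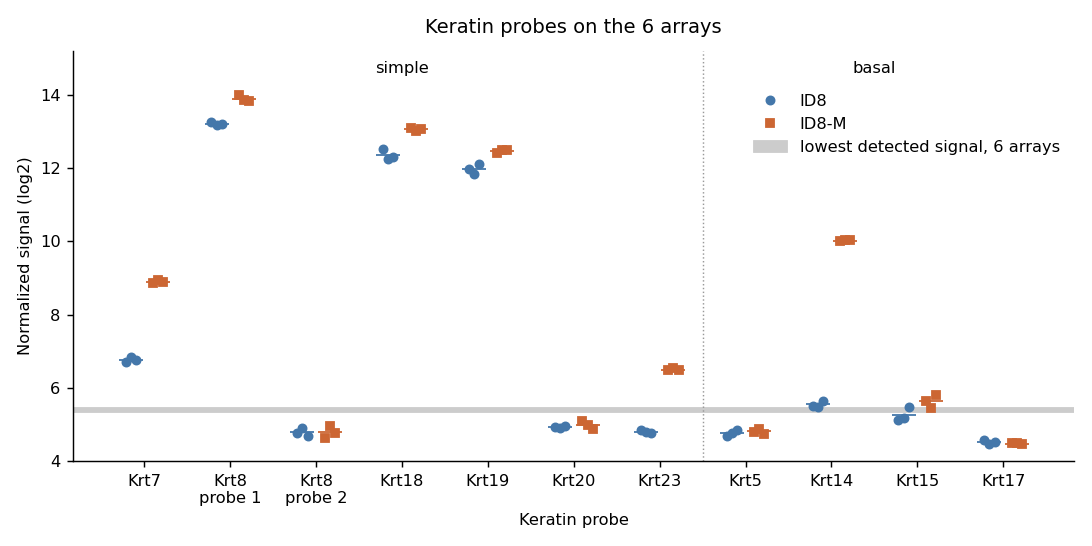
Normalized signal (log2, vertical axis) of each keratin probe on the 3 ID8 arrays (circles) and the 3 ID8-M arrays (squares), with a short line at each mean and a grey band at the lowest signal among detected probes on each array. Krt14 lies just above the band in ID8 and at 10.02 in ID8-M, while Krt5, Krt17, Krt20 and the second Krt8 probe lie below it in both lines.

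The sequences upstream of Krt7, Krt8 and Krt18 are shown because these simple keratin genes rose together and lie in 1 cluster, and that of Krt5 because it lies in the same cluster and was not detected. They are the 250 bases before the annotated start, from RefSeq (GRCm38.p6), written 5′ to 3′ on the gene's strand with motif matches in capitals.
Krt7, chr15:101412153-101412402, plus strand: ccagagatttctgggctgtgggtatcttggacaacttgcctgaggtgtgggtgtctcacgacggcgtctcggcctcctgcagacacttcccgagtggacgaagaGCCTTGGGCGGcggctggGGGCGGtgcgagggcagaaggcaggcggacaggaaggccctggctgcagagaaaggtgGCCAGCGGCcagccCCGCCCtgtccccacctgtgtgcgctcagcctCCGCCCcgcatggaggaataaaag
Krt8, chr15:102004343-102004592, minus strand: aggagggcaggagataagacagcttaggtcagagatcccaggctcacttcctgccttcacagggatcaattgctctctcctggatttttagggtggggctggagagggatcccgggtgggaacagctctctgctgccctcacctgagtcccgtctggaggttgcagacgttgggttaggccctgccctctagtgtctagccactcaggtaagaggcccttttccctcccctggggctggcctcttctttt
Krt18, chr15:102027966-102028215, plus strand: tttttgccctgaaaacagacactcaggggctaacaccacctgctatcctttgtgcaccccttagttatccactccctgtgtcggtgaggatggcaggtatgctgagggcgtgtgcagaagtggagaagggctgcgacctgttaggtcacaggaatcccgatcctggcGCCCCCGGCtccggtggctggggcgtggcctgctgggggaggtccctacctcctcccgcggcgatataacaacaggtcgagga
Krt5, chr15:101712906-101713155, minus strand: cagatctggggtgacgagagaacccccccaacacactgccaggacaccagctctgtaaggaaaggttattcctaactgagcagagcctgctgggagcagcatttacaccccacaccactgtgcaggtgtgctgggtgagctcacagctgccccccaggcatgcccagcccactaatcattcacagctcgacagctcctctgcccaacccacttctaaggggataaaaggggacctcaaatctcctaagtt

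Motifs were searched on both strands. TATAAA was taken for the TATA box, GGGCGG for the GC box, TGANTCA for the AP-1 site and GCCNNNGGC for the AP-2 site. The Krt7 window held 4 GC boxes and 2 AP-2 matches, 1 of them overlapping a GC box, and had 66% G and C bases. The Krt18 window held 1 AP-2 match, and none of the 4 motifs was found in those of Krt8 and Krt5. A GC box occurred in 32.7% of all 32851 windows of the same length, an AP-2 match in 13.7%, a TATA box in 12.4% and an AP-1 match in 6.75%. These matches describe letters and are not evidence of binding. Upstream windows were available for 7 of the 10 keratins, and not for Krt15, Krt17 and Krt19. The Krt14 window was not used, since the start it is set on lies 1480 bases from the annotated start of the gene. The windows of Krt20 and Krt23 held 1 TATA box and no match, respectively.

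The primary simple pair was strong in both lines and higher in ID8-M. For Krt8, the type II chain of the pair, the scanner intensities were 10222, 9915 and 9512 in ID8 and 15932, 14491 and 13827 in ID8-M. Every ID8-M array stood above every ID8 array, and all values lay under the highest intensity found on any array, 32953 to 35693. The log2 difference was 0.68 ± 0.08 (SE, limma adjusted p = 0.000567). The second Krt8 probe, annotated to the same transcript, was not detected on any array, with a log2 signal of 4.79 ± 0.10 in ID8 and 4.79 ± 0.17 in ID8-M (SD, n = 3). The Krt8 result therefore rests on 1 of 2 probes.

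Krt18, the type I partner of Krt8, gave intensities of 6179, 5176 and 4953 in ID8 and of 8795, 8300 and 8182 in ID8-M. The lines did not overlap, and the first ID8 sample lay above the other ID8 samples. The log2 difference was 0.70 ± 0.10 (SE, limma adjusted p = 0.0012). The log2 distance between their probes changed by −0.02 from ID8 to ID8-M, within its own spread of 0.13 in ID8 and 0.08 in ID8-M (SD, n = 3, exact permutation p = 0.8, two-sided). A p of this size does not show that both rose alike, and only the change is compared, since levels of different probes are not on 1 scale.

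Krt7 and Krt19, the other simple pair of glandular epithelium, rose 4.38-fold and 1.41-fold. Krt7, a type II chain of ducts and glands, measured 228.0, 239.6 and 216.6 in ID8 and 603.1, 601.3 and 555.7 in ID8-M. The ID8 intensities lay nearer to the estimated background of 128.9 to 138.9 per array than to those of ID8-M, and the lines did not overlap. The log2 difference was 2.13 ± 0.08 (SE, limma adjusted p = 7.75e-07), rank 83 among all 8933 tested genes from the largest rise down. Without background correction the log2 difference was 1.39 and still called.

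Krt19, a type I chain without the usual tail domain, measured 4292, 3911 and 4364 in ID8 and 5592, 5828 and 5568 in ID8-M. The lines did not overlap, and the difference was the smallest among the called keratins at 0.50 ± 0.09 (SE, log2, limma adjusted p = 0.00524). The log2 distance between the Krt7 and Krt19 probes moved by 1.64 toward Krt7 on the background-corrected scale, with a spread of 0.19 in ID8 and 0.03 in ID8-M (SD, n = 3). All 3 ID8-M samples lay on one side of the 3 ID8 samples, and the exact permutation p was 0.1, the smallest that 3 against 3 samples allow (0.2 adjusted over the 2 pairs compared). Without background correction the rises of Krt7 and Krt19 were 1.39 and 0.48, nearer to each other. The pair of Krt5 and Krt14 was not compared because Krt5 was not detected.

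Krt23 and Krt20 are the simple keratins of narrower use. Krt23, a type I chain, measured 144.8, 143.0 and 134.3 in ID8 and 213.2, 208.4 and 200.5 in ID8-M. It was detected on no ID8 array and on all 3 ID8-M arrays, so only a bound can be given: the ID8-M level was higher by a factor of at least 2.13 (limma adjusted p = 1.91e-06). The bound sets the ID8-M mean against the lowest normalized signal of detected probes on the ID8 arrays. Without background correction the log2 difference was 0.59 in place of 1.70, and with an offset of 50 in that correction it was 1.01. Krt20, a type I chain of intestinal epithelium and urothelium, measured 141.8 to 148.4 in ID8 and 136.8 to 149.7 in ID8-M, was detected on no array and overlapped between lines.

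Krt14 was the 1 basal keratin that was called. Krt14, the type I chain of basal keratinocytes, gave scanner intensities of 168.1, 168.8 and 163.3 in ID8 and of 1168, 1146 and 1091 in ID8-M. The ID8 arrays were barely above background, with detection p-values of 0.0385, 0.0406 and 0.0246, and the ID8-M arrays were far above it. The log2 difference was 4.48 ± 0.08 (SE, limma adjusted p = 2.39e-08), rank 6 among the 8933 tested genes. It was 2.81 without background correction, where the background remains in both lines, and still called.

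Krt5, the type II partner of Krt14 in basal keratinocytes, measured 136.8, 141.2 and 137.6 in ID8 and 137.9, 139.4 and 132.0 in ID8-M. The lines overlapped, no array passed detection, and the smallest of the 6 detection p-values was 0.203. Krt17, a type I chain induced in wounded or activated epithelium, was likewise undetected, at 121.5 to 130.9 in ID8 and 115.3 to 119.5 in ID8-M. Krt16, a close relative of Krt14 and Krt17 outside the set, was not detected on any array either. The probes for Krt6a and Krt6b, further type II chains that can pair with type I chains in stratified epithelium, also detected nothing on any array.

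Krt15, a type I chain of basal cells and hair follicle stem cells, measured 154.7, 158.2 and 158.6 in ID8 and 169.1, 159.6 and 168.1 in ID8-M. On the normalized scale the third ID8 sample, at 5.48, exceeded the second ID8-M sample, at 5.46, so the lines overlapped. The log2 difference of 0.37 ± 0.13 (SE) did not pass the threshold (limma adjusted p = 0.0631). Krt15 was detected on 1 ID8 array and on all 3 ID8-M arrays. Without the third ID8 sample the difference was 0.48 and called (limma adjusted p = 0.0274).

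**Figure D2:**
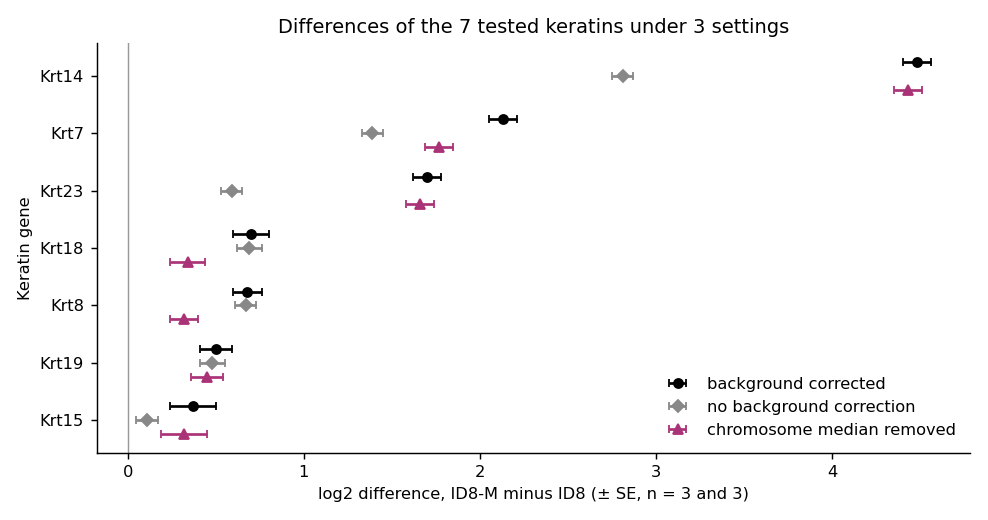
Log2 difference between ID8-M and ID8 (horizontal axis, with SE, n = 3 and 3) of the 7 tested keratins with background correction (circles), without it (diamonds) and with the median difference of the gene's chromosome removed (triangles). Without background correction Krt14 lies at 2.81 in place of 4.48 and Krt23 at 0.59 in place of 1.70, and with the chromosome median removed Krt8 and Krt18 lie at 0.32 and 0.34.

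Each probe value rested on 21 to 52 beads, and the standard error over beads was 1.99% to 6.59% of the intensity across the 11 keratin probes and 6 arrays. The number of arrays, 3 per line, limits the precision.

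The keratin genes lie in 2 clusters, and those on chromosome 15 sat among genes that were mostly higher in ID8-M. Krt5, Krt7, Krt8 and Krt18 lie on chromosome 15 and the other 6 keratins on chromosome 11 (GRCm38.p6 annotation). Of 380 tested genes on chromosome 15, 55.5% were called higher and 3.16% lower, with a median log2 difference of 0.36. Of 782 on chromosome 11, 18.3% were called higher and 8.44% lower, and their median was 0.04. After subtraction of its chromosome's median, Krt8 differed by 0.32 (limma adjusted p = 0.0251), Krt18 by 0.34 (limma adjusted p = 0.0374) and Krt7 by 1.77. These 3 remained called, while the differences of Krt8 and Krt18 shrank to under 0.35. On chromosome 11, Krt14, Krt23 and Krt19 then differed by 4.43, 1.66 and 0.45. Whether a change of the whole chromosome takes part in the rise of Krt7, Krt8 and Krt18 was not tested.

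The tested genes nearest to Krt18 and Krt14 showed the same contrast as their chromosomes. Among the 20 tested genes on either side of Krt18, the 36 that are not keratins included 23 called higher and 1 called lower, with a median log2 difference of 0.40. Over all tested genes of chromosome 15 the shares were 55.5% higher and 3.16% lower. Directly beside Krt18, Eif4b, a translation initiation factor, rose by 0.56 ± 0.11 (SE, log2). Around Krt14, 9 of 35 such genes were called higher and 2 lower, with a median of 0.14. Over chromosome 11 the shares were 18.3% and 8.44%. Hap1, the tested gene next to Krt14, rose by 1.26 ± 0.08, and the next one, P3h4, by 0.27 ± 0.08, against 4.48 for Krt14 itself. Within the chromosome 11 cluster Krt10, a chain of differentiated keratinocytes and the tested gene next to Krt23, had a log2 difference of −0.10 ± 0.10 (limma adjusted p = 0.496). Neighbours are named by position, a choice made after the values were seen.

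**Figure D3:**
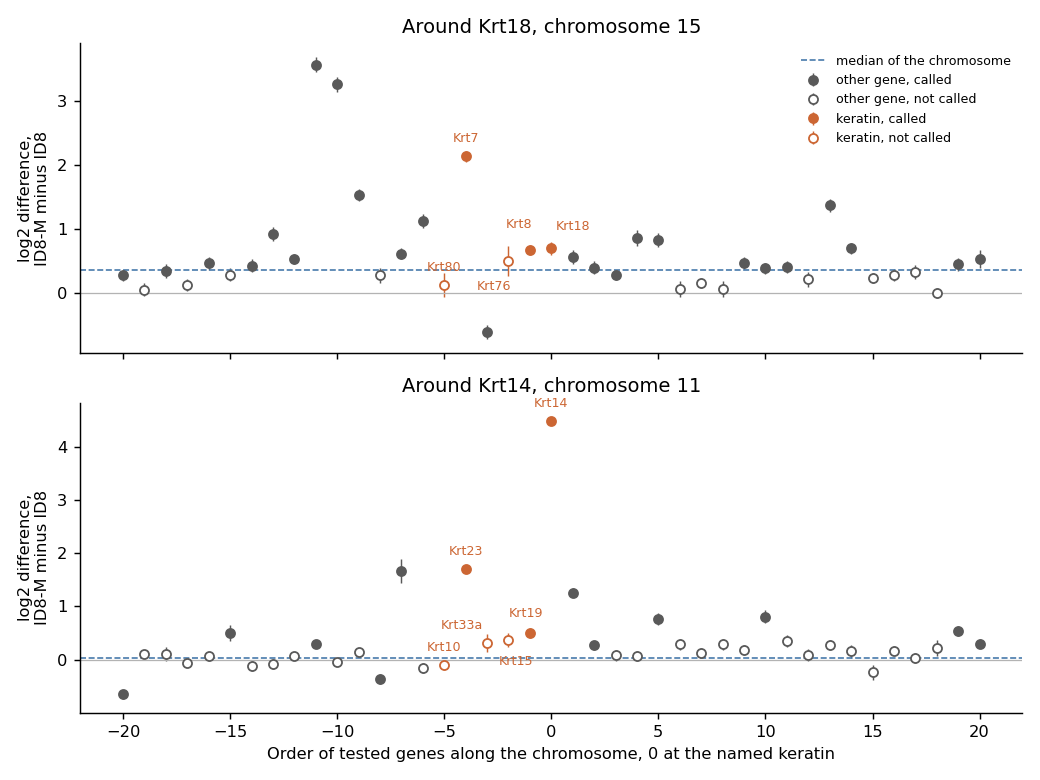
Log2 difference between ID8-M and ID8 (vertical axis, with SE) of the 20 tested genes on either side of Krt18 (upper panel) and of Krt14 (lower panel), in their order along the chromosome. Filled points are called, orange points are keratins and the dashed line is the median of the chromosome, 0.36 for chromosome 15 and 0.04 for chromosome 11.

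No call was made among the other keratins. The annotation gives 55 probes to 39 further keratins, mostly of epidermis and hair, of which 29 were not detected on any array. The 4 that were tested, Krt10, Krt33a, Krt76 and Krt80, gave 0 calls with limma, and 0 had an unadjusted p under 0.05. Of all tested genes 15.4% were called higher and 15.3% lower. With 4 genes tested, 0 calls do not set these keratins apart from those shares. Krt33a and Krt76 passed the filter only through the ID8-M arrays. The smallest adjusted p was that of Krt76, an oral type II chain, with a log2 difference of 0.50 ± 0.23 (limma adjusted p = 0.138). Krt76 was called without the first ID8 sample, with a difference of 0.71 (limma adjusted p = 0.0423).

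Of 7 tested intermediate filament genes other than keratins, 0 rose and 3 fell (limma), beside 15.4% and 15.3% of all tested genes, and their median log2 difference was −0.19. Without the second ID8-M sample 1 of 8 tested was called higher. Nes, the nestin of progenitor cells, fell by 0.95 ± 0.13 (limma adjusted p = 0.00119), although its other tested probe, at −0.56 ± 0.21, was not called. Iffo2 fell by 0.65 ± 0.10, and the nuclear lamin Lmnb1 was the third. Vim, vimentin, the filament of mesenchymal cells that ovarian surface cells also carry, had a difference of −0.11 ± 0.08 without a call.

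Of 11 tested desmosome and hemidesmosome genes, which anchor keratin filaments, 5 rose and 2 fell, beside 15.4% and 15.3% of all tested genes, with a median of 0.42. Itgb4, the integrin subunit that connects hemidesmosomes to keratin, rose by 3.21 ± 0.10, and its second probe by 2.92. Evpl, the plakin envoplakin, rose by 1.50 ± 0.10, and the others were Ppl, Plec and Dsg2. Dsg2, a desmosomal cadherin, rose by 0.42 ± 0.08 on the brightest of 4 tested probes, and its remaining probes, at 0.03, 0.43 and 0.07, gave no call. Dst, a hemidesmosome plakin, fell by 0.32 ± 0.10 on the brightest of 4 tested probes. The remaining 3, at −0.17, −0.10 and 0.05, gave no call, and the last 2 are annotated to other transcript records. Pkp4, a plakophilin-related protein, fell by 0.31 ± 0.08, and by 0.40 and 0.41 by 2 further probes. Leaving out 1 sample ended the Dst call in 5 of 6 cases, all but the second ID8 sample, with an adjusted p of up to 0.133. It ended the Pkp4 call in 4 cases, the first and second samples of each line, with an adjusted p of up to 0.0668. The desmosome genes Dsc2, Dsc3, Dsg3 and Pkp3 were among the 9 with a probe that did not pass the detection filter.

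Among 5 tested proteins that bind keratin, 1 rose and 0 fell, beside 15.4% and 15.3% of all tested genes. Tchp, the keratin-binding trichoplein, rose by 0.49 ± 0.08. In some settings 2 of the list were higher. Among these were no background correction, the deposited normalized table, cyclic loess and, separately, leaving out the third ID8-M sample. Of 8 tested epithelial transcription factors, 4 were called higher and 0 lower, beside 15.4% and 15.3% of all tested genes. Elf3 and Grhl1 passed the filter only through the ID8-M arrays, so this count leans toward rises by construction, and it was 2 of 6 when detection had to pass 0.01 throughout the 6 arrays. Elf3, an ETS factor of epithelia, was at least 1.9-fold higher, undetected on all ID8 arrays, and at least 1.23-fold by a second probe. Without background correction its log2 difference was 0.69, and 0.16 by the second probe. Sox9 rose by 1.17 ± 0.08, and by 1.29 by its other probe, and Klf4 and Grhl1 were the other rises. Trp63, the master regulator of basal keratinocytes, was not detected on any array by either of its probes.

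Markers of keratinocyte differentiation split evenly, with 3 of 6 tested genes higher and 3 lower, beside 15.4% and 15.3% of all tested genes. Dmkn, a secreted epidermal protein, rose by 5.62 ± 0.09, with 2 further probes at 5.65 and at least 1.25-fold. Cdsn, the corneodesmosin of cornified cells, was at least 1.43-fold higher and passed the filter only through ID8-M. Its other probes were not detected on any array. Without background correction the Cdsn log2 difference was 0.23, and with an offset of 50 in that correction it was 0.42. Lor, the loricrin of the cornified envelope, fell by 0.39 ± 0.09, and Sprr1a, a small proline-rich envelope protein, fell by 0.38 ± 0.09. The Sprr1a call ended without the third ID8 sample or the first ID8-M sample (limma adjusted p = 0.0541 in both), and without the latter 1 gene of the list was lower. Krt14 thus rose beside genes of the stratified programme that moved in both directions.

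Junction and surface genes of simple epithelium were mostly not detected. Of 4 tested, 2 rose and 1 fell, beside 15.4% and 15.3% of all tested genes. Spint1, a protease inhibitor of epithelial membranes, rose by 2.12 ± 0.10 and Cldn3, a claudin, by 1.26 ± 0.10. Cdh1, E-cadherin, fell by 0.61 ± 0.11 by the brighter of its 2 probes, and that call ended with the median of its chromosome removed (log2 difference of −0.30, limma adjusted p = 0.0871). The other Cdh1 probe was not called. Epcam, a common surface marker of carcinoma cells, was not detected on any array. Of 10 mesothelial and ovarian surface genes with a probe, 8 were tested, and 3 were called higher and 0 lower, beside 15.4% and 15.3% of all tested genes. Lrrn4, 1 of the 3, passed only through ID8-M, 5 were called higher without background correction, and 1 was lower without the third ID8 sample. Bnc1, the zinc finger protein basonuclin, rose by 1.74 ± 0.11 and Upk3b, a uroplakin of mesothelium, by 1.41 ± 0.09, and by 1.57 and 1.59 by its other probes.

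**Figure D4:**
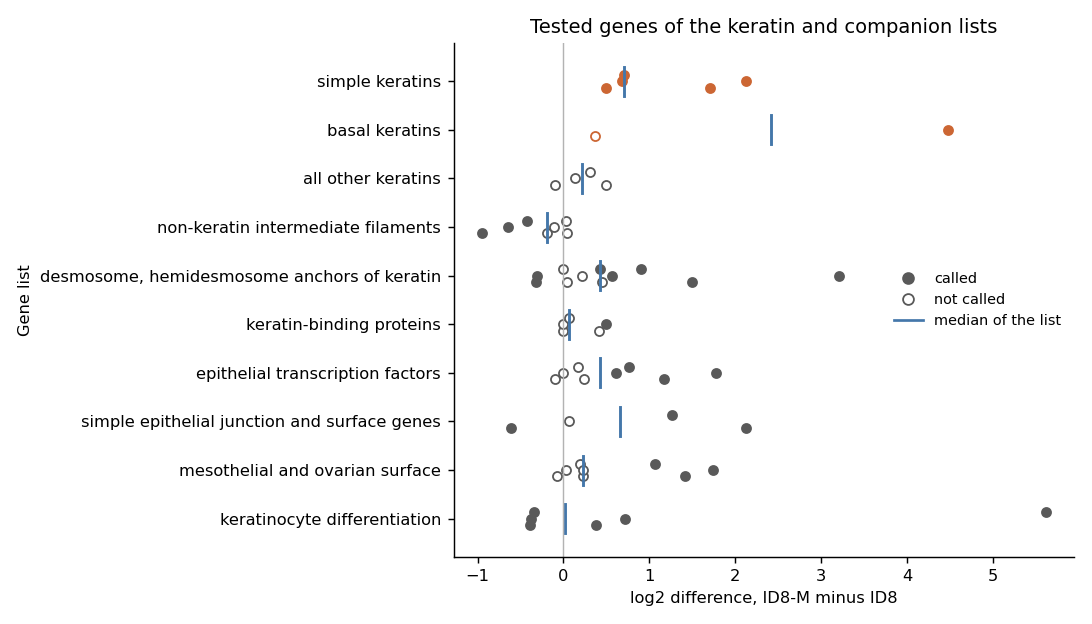
Log2 difference between ID8-M and ID8 (horizontal axis) of each tested gene in the keratin classes and the companion lists, filled where called, with a blue bar at the median of each list. All called keratins lie to the right of 0, while the called non-keratin intermediate filaments lie to its left.

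The genes whose profile over the 6 arrays was most like that of a called keratin were found by the root mean square distance between log2 profiles, each centred on its own mean. For Krt14 they were Papss2 (0.135), Gstk1 (0.183) and Map7 (0.231), all undetected on the ID8 arrays. For Krt7 they were Plxnb3 (0.078), Ociad2 (0.085) and Tbc1d10c (0.092), and for Krt23 Clip2 (0.037), Uba7 (0.065) and Gprc5a (0.071). The nearest to Krt8 were Sqstm1 (0.038), Hid1 (0.039) and Mpp2 (0.042), and to Krt18 Tmem106c (0.053), Scd1 (0.061) and Cacna2d1 (0.066). Those nearest to Krt19 were Fetub (0.024), Uap1l1 (0.028) and Unc13c (0.033). Clip2 and Unc13c were likewise undetected on the ID8 arrays. With 2 lines, such a list mainly holds genes with a difference of the same size.

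Markers of other cells that ascites could have contributed were mostly undetected, with exceptions. Of 11 macrophage markers with a probe, Cd14 was the 1 detected on all arrays of a line, with a log2 signal of 8.84 in ID8 and 8.49 in ID8-M (difference −0.35, limma adjusted p = 0.0243), and Ptprc, the pan-leukocyte marker, was at background by all its probes. The summed normalized signal of the macrophage list was 977.7 to 1035 in ID8 and 868.1 to 913.8 in ID8-M. Of 7 lymphocyte markers Cd3e alone passed the filter, with sums of 326.4 to 388.8 and 312.8 to 335.8, and 0 of 4 erythroid markers did. Of 8 endothelial markers 2 were tested, and Pecam1 was higher in ID8-M by a factor of at least 1.47, while Plvap fell by 0.68. Pecam1 passed the filter only through the ID8-M arrays and Plvap only through the ID8 arrays. The other Pecam1 probes did not pass it. Without background correction the log2 differences of Pecam1 and Plvap were 0.40 and −0.22. The fibroblast list gave sums of 5884 to 6426 in ID8 and 9360 to 9776 in ID8-M, with 2 of 10 genes tested, Col1a1 not called and Dcn, the matrix proteoglycan decorin, at 12.16 in ID8 and 12.77 in ID8-M (log2 signal, limma adjusted p = 0.000874), and with Pdgfra and Col3a1 undetected. The part of these markers in the keratin differences was not tested.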

How the data were processed

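RNA of 3 ID8 and 3 ID8-M samples was labelled as biotinylated cRNA and hybridised to Illumina bead arrays, per the labels' protocols. The scanner table that the authors deposited holds for each array a mean intensity, a bead count, a bead standard error and a p-value of detection, as named in its headers. The deposited intensities were neither background subtracted nor normalized. A second deposited table followed quantile normalization of the same intensity values, with gaps of up to 1.68%, and served as an alternative. No source used here gives the scanner software.

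Background correction from the detection p-values, quantile normalization and the log2 transform were done with limma 3.58.1 in R 4.3.3 (neqc, offset 16). Of 45281 probes, 34885 had 1 gene symbol, 18 several and 10378 none. The 16221 probes detected (p below 0.05) throughout the arrays of one line or both were fitted with limma (two-sided), with Benjamini-Hochberg adjustment over them. A gene is its brightest tested probe. Between 16386 and 17186 probes were detected per array. Arrays correlated at 0.9933 to 0.9946 within lines and 0.9673 to 0.9704 between them. The fit was tested on simulated data.

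The members and lists were chosen with earlier results of these data known. Named are all 10 keratins, of each list up to 2 called rises and 2 called falls or the gene with the smallest adjusted p, and the 3 genes most like each called keratin. Further genes, such as undetected markers, the remaining calls of a list and neighbours, were named after their values were seen.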

Additional observations from a re-analysis of the deposited data

How the results depend on the processing

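With 3 arrays a line and detection near background, the sizes for Krt14, Krt7, Krt23 and Krt15 depend on background correction: without it their log2 differences were 2.81, 1.39, 0.59 and 0.11. The 6 called keratins were 6 of 10 in every setting except 4 when detection had to pass 0.01 throughout the 6 arrays, where Krt14 and Krt23 were not tested, and 7, with Krt15, in 3 others. Those were the replicate block (adjusted p = 0.0383), the mean over a gene's tested probes (0.0469) and leaving out the third ID8 sample (0.0274). No keratin was lower in any setting. Folds given as at least a value hold on the background-corrected scale with an offset of 16. The median of the simple keratins was 0.45 with chromosome medians removed and between 0.67 and 0.79 when 1 sample was left out. The median of the basal keratins was 1.46 without background correction and with the deposited normalized table, 1.97 with an offset of 50, 0.20 without a filter, which adds the undetected Krt5 and Krt17, and 2.37 to 2.50 when 1 sample was left out. Of 53 tested genes in the companion lists, 18 were higher and 9 lower in ID8-M, beside 15.4% and 15.3% of all tested genes. The count lower was 5 to 8 when 1 sample was left out. The count higher was 18 to 20 when 1 sample was left out and 15 with detection at 0.01 on every array. It was 23 without background correction or with the deposited normalized table. The arrays gave no sign that the replicate numbers pair the samples, which cannot show that they were not paired. Deviations of same-numbered arrays correlated at 0.04, −0.09 and 0.01, and those of other arrays of the 2 lines at −0.10 to 0.10. The replicate block gave 1964 probes higher and 2005 lower, against 2203 and 2407 without it. Of the other named genes, the replicate block ended the calls of Dst and Pkp4 (adjusted p = 0.0873 and 0.0527) and gave one for Krt76 (0.013). Dst also lost its call with cyclic loess, with chromosome medians removed and without a filter. The causes were not tested.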

Other observations

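On the same stretch of chromosome 15 as Krt7, Krt8 and Krt18, 2 genes that were picked after their values were seen had larger log2 differences than these keratins. Smagp, a small transmembrane glycoprotein, was 3.56 ± 0.11 higher in ID8-M and Cela1, an elastase, 3.25 ± 0.12 higher (SE, limma adjusted p = 2.27e-07 and 5.92e-07). Acvr1b, an activin receptor, and Amhr2, the receptor of anti-Müllerian hormone, were 1.53 ± 0.10 and 1.37 ± 0.10 higher. Gm5477, which lies between Krt7 and Krt8 in the order of tested genes, was the 1 gene called lower there, with a difference of −0.60 ± 0.11.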
